A study of Homo sapiens with 2 samples.

Results

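The RAG1, RAG2, DNTT and IL7R genes encode parts of the machinery of early lymphocyte development, and the peaks of HA-tagged ETV6 around them are described here. ETV6 belongs to the ETS family of transcription factors and mostly represses its target genes. Peaks were taken where their summit, the base of highest read coverage, lay in 1 of 3 hg19 spans widened by 50 kb on each side. The RAG window surrounds chr11:36589563-36619812 and covers RAG1 and RAG2, which are neighbours and point towards each other. The DNTT window surrounds chr10:98064085-98098321, and the IL7R window surrounds chr5:35856977-35879705. They held 46 of the 315787 peaks of the list, with 13 in the RAG window, 25 in the DNTT window and 8 in the IL7R window.

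The peaks come from chromatin immunoprecipitation sequencing in Reh, an established cell line from a pre-B acute lymphoblastic leukaemia with the t(12;21) translocation that joins ETV6 to RUNX1. In the test arm, cells were transduced with the vector pCCL ETV6-HA, and tagged protein was pulled down with anti-HA magnetic beads. In the control arm, cells transduced with untagged pCCL ETV6 went through the same pulldown. Both arms received 200 ng of virus with polybrene, an agent that aids infection, at 8 µg/mL and were kept for 2 weeks in culture before further work, so both carried a vector copy of ETV6 beside the genes of the line. Each arm is 1 pooled library of 1 cell line. The tagged pool has the only peak list used here. No replicate spread could be measured, no test between the arms was made, and the depth of the libraries was not used here.

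RAG1 and RAG2 form the recombinase that cuts DNA at the gene segments of antigen receptors during V(D)J recombination. DNTT (terminal deoxynucleotidyl transferase) adds bases without a template at the cut ends before they are joined. IL7R is the alpha chain of the interleukin 7 receptor, a cytokine receptor that supports the growth of early lymphocytes. All of them are active in early stages of lymphocyte development, and DNTT is a usual marker of lymphoblastic leukaemia. ETS factors bind DNA around a core of the letters GGAA.

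The bases just before the annotated starts of 3 of the genes are shown, because these promoters are the places where a peak at the start of the gene would fall. Each run holds the 250 bases before the RefSeq start (build GRCh38.p14, gene strand, 5′ to 3′), and capitals mark GGAA or its reverse complement TTCC. The RAG2 run is chr11:36598237-36598486 on the minus strand, the DNTT run chr10:96304184-96304433 on the plus strand and the IL7R run chr5:35856641-35856890 on the plus strand. These coordinates belong to another build than the hg19 peaks and cannot be set against them.
RAG2: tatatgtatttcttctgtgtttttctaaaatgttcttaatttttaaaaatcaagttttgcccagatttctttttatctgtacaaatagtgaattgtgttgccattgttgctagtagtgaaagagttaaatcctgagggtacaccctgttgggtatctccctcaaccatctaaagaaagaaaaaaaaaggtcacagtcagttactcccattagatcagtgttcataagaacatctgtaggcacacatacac
DNTT: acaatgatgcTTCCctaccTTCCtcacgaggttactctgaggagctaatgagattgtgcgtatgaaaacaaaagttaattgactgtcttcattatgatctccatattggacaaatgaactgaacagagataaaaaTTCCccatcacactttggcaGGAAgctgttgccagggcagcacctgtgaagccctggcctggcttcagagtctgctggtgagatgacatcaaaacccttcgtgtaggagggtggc
IL7R: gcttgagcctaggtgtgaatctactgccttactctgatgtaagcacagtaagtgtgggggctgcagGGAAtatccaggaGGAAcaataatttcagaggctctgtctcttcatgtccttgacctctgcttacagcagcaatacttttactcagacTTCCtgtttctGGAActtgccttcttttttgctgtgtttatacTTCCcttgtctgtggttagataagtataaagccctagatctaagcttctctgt

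The core GGAA, counted on both strands, was found 5 times before IL7R and 4 times before DNTT. It was found 0 times before RAG2. The same letters were in 92.7% of 35116 RefSeq promoters of that length, with a median of 3 matches, so the presence of a match says little. The longer CGGAA and CCGGAAGT, which contain that core, were found 0 times in the 3 runs and in 30.3% and 3.42% of all promoters. A missing match says only that these letters are not in that stretch. The RefSeq start of RAG1 was not shown, because the RAG1 model of that build is 69410 bp long. That is longer than the 30.25 kb from the start of RAG1 to the start of RAG2 used for the peaks, so the model has another outer start. The models of DNTT (34131 bp) and IL7R (22713 bp) are close in length to their hg19 spans of 34.237 and 22.729 kb.

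The median height of the peaks around these genes was that of the whole list. Height is given as the pileup, the number of reads over the summit, and as the fold enrichment. The fold enrichment is the ratio of summit to background from the authors' peak caller. At 43 of the 46 peaks this background was 1 shared level of 4.29 reads, and 4.19% of the whole list had a higher one. At the shared level, fold is the pileup on another scale and not a separate measure. Over the 46 peaks the pileup ran from 12 to 19 reads with a median of 14, and the fold enrichment from 2.27 to 3.78 with a median of 2.84. The whole list had the same medians, 14 reads and 2.84. Of the 46 peaks, 0 reached 20 reads, a height reached by 2.66% of all peaks, 1.55% of those on chromosome 11, 2.33% on chromosome 10 and 1.74% on chromosome 5. At the shares of their chromosomes, 0.923 such peaks would have been counted. A count of 0 of 46 allows a share of up to 6.52%, so these windows are too small to show a lack of tall peaks.

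A q value of at most 0.01 was given to 12 of the 46 peaks (26.1%, exact Clopper-Pearson 95% interval 14.3 to 41.1). At the shares of their chromosomes the number would have been 8.9, or 19.4% of 46, which lies inside that interval, and the share over the whole list was 20.7%. By window, 2 of 13 peaks passed around RAG1 and RAG2, against 18.9% on chromosome 11. Around DNTT 8 of 25 passed, against 19.7% on chromosome 10, and around IL7R 2 of 8, against 19% on chromosome 5. A q value of at most 0.001 was given to 1 of the 46 peaks, downstream of IL7R, against 6.23% of the whole list and 4.93%, 5.75% and 5.09% of the peaks of chromosomes 11, 10 and 5. At those shares the number would have been 2.49. These intervals, and those on counts of peaks, cover counting error over peaks only.

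**Figure D1:**
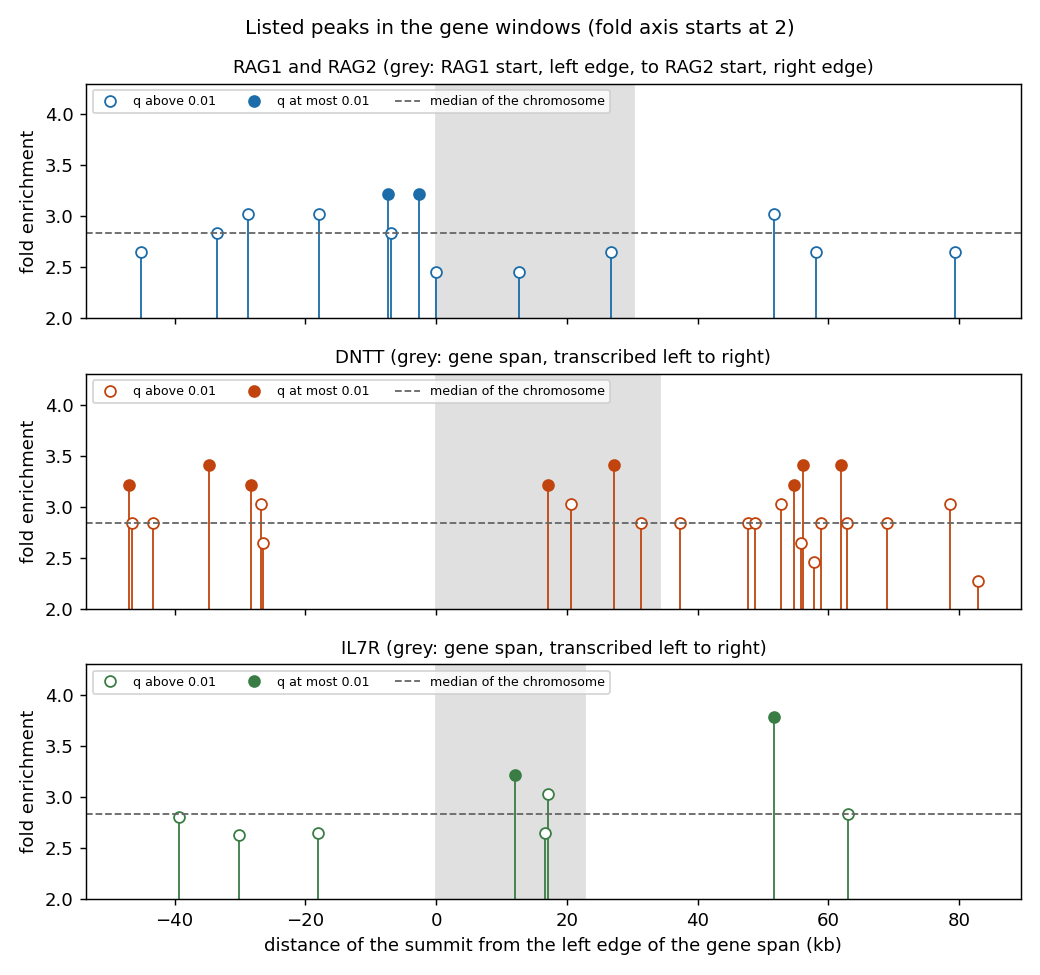
Peaks in the RAG1-RAG2 (top), DNTT (middle) and IL7R (bottom) windows. The horizontal axis is the distance of each summit from the left edge of the gene span in kb, the vertical axis the fold enrichment from a baseline of 2, filled points have q of at most 0.01, and grey marks the gene span. The 2 filled points of the top panel lie left of the RAG1 start, and the highest point of all, at 3.78, lies right of IL7R.

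Around the recombinase genes, most peaks lay on the outer side of RAG1. Of the 13 peaks, 8 lay in the 50 kb before the RAG1 start, 2 between the starts of RAG1 and RAG2, and 3 in the 50 kb beyond the RAG2 start. That is 160 peaks per Mb before RAG1, 66.1 between the starts and 60 beyond RAG2, against 124 on chromosome 11. The 500 kb before the window held 204 per Mb. With counts of 8, 2 and 3 peaks, the side before RAG1 is not shown to be enriched. The protein-coding neighbours in the RefSeq order are TRAF6, on the side of RAG1, and IFTAP, on the side of RAG2. As the RefSeq model of RAG1 is longer than the span, some peaks counted as before RAG1 may lie inside a longer RAG1 transcript. They were not placed against one.

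The RAG1 start was the only start of the 4 genes with a summit within 1 kb. The median gap between peaks on chromosome 11 was 3988 bp. How many other gene starts have a summit this near was not counted, so 1 of 4 starts is not shown to be unusual. The peak chr11:36589449-36589565 overlapped the RAG1 start, with its summit 64 bp upstream. It was among the weakest of the list. Its pileup was 12 reads, the lowest in the whole file, its fold enrichment was 2.46 and its q value 0.0841. Of the peaks on chromosome 11, 98.6% were at least as high by fold. At 117 bp it was wide for its height, as peaks of 12 reads on that chromosome had a median width of 66 bp. At this pileup 1 read is worth 0.189 of fold enrichment, so the peak is close to the limit of the list.

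Higher peaks lay a few kb further from RAG1. The peak chr11:36586940-36587145 had its summit 2567 bp upstream of the RAG1 start and was 206 bp wide, the widest of the window. Its pileup was 16 reads, its fold enrichment 3.22 and its q value 0.0048. Widths of at least 206 bp were held by 4.7% of the peaks of chromosome 11. The peak chr11:36582047-36582205, 7412 bp upstream, had the same 16 reads, fold and q and a width of 159 bp. Another peak, chr11:36582643-36582705, followed after 437 bp with 14 reads and a fold of 2.84. Together with the peak at the start these made a run of 4 peaks over 7.52 kb with gaps under 5 kb. Runs of at least 4 held 45.4% of the peaks of chromosome 11.

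Between the starts of RAG1 and RAG2 the peaks were narrow and low. The peak chr11:36602232-36602283, 12711 bp from the RAG1 start, was 52 bp wide with 12 reads and a fold of 2.46. The peak chr11:36616305-36616364, 3476 bp inside from the RAG2 start, was 60 bp wide with 13 reads and a fold of 2.65. Neither had q of at most 0.01. The RAG2 start itself lay in a stretch of 24.8 kb without a peak, from 36616365 to 36641198. Stretches of at least that length made up 5.8% of the gaps between peaks on chromosome 11, but 35.7% of its length, so such a stretch is common along the chromosome. Other peaks at 15 reads and a fold of 3.03 were chr11:36560792-36560882 and chr11:36571547-36571678 on the RAG1 side and chr11:36641199-36641337 on the RAG2 side, 21437 bp from its start. The remaining 4 peaks had 13 or 14 reads, 3 of them 13.

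The DNTT window was the densest of the 3, and its peaks lay mostly after the gene. Of 25 peaks, 7 lay in the 50 kb before the DNTT start, 4 inside the gene and 14 in the 50 kb after its end, which is 140, 117 and 280 peaks per Mb. In the RefSeq order the coding neighbour before DNTT is BLNK, an adaptor protein of B-cell receptor signalling, and those after it are OPALIN and TLL2. Whether peaks of the flanks lie inside these genes was not analysed here, as no hg19 annotation was used.

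The start of DNTT stood in the longest stretch without a peak of all 3 windows. It ran 43.5 kb, from chr10:98037617 to chr10:98081090, with the nearest summits 26548 bp upstream and 17050 bp downstream of the start. On chromosome 10 2% of the gaps between peaks were at least as long, and these made up 20% of its length. The 4 peaks inside the gene all lay in its downstream part, between 17050 and 31348 bp from the start. The highest was chr10:98091191-98091366, 27204 bp from the start, with 17 reads, a fold of 3.4, a q value of 0.00175 and a width of 176 bp. The first, chr10:98081091-98081177, had 16 reads, a fold of 3.22 and a q value of 0.0048, and was narrow at 87 bp against a chromosome median of 132 bp at 16 reads. The other 2 had 15 and 14 reads.

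After DNTT the peaks stood close together. From chr10:98111819 to chr10:98127137, 10 peaks followed each other with gaps under 5 kb, over 15.3 kb. Runs of at least 10 peaks held 11.5% of the peaks of chromosome 10. The peak chr10:98118762-98118886, in the middle of the run, had 9 other summits within 10 kb, and no peak of the window had more. The median on the chromosome was 3, and 6.06% of its peaks had at least 9. As the highest count of the window was picked, that share does not show it to be unusual. Pileups in the run spanned 12 to 17 reads, and 3 of the 10 peaks had q of at most 0.01, against 19.7% of the peaks of chromosome 10. The highest were chr10:98120114-98120219 and chr10:98125923-98126117, both with 17 reads and a fold of 3.4, and with widths of 106 and 195 bp. The peak chr10:98121901-98121951 between them had 12 reads, a fold of 2.46 and a width of 51 bp, the narrowest width in the whole file.

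The flank before DNTT held the fourth peak of 17 reads. This peak, chr10:98029334-98029473, lay 34703 bp upstream of the start, with a fold of 3.4 and a width of 140 bp. The peaks chr10:98017022-98017146 and chr10:98035666-98035792 had 16 reads and a fold of 3.22. The lowest peak of the 46 by fold was at the other end of the window, chr10:98146939-98146998, with a fold of 2.27 and a q value of 0.0845. Its pileup was 13 reads and its local background was raised, at 5.17 reads against 4.29 at most other peaks. The other 24 peaks of the DNTT window had the shared background.

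The IL7R window held few peaks, and 3 of its 8 lay inside the gene. The flank before the gene held 3 and the flank after it 2, so the density was 132 peaks per Mb inside the gene, 60 before it and 40 after it. With counts this small the intervals are wide. The coding neighbours in the RefSeq order are SPEF2 before IL7R and CAPSL after it. The IL7R start lay in a stretch of 30 kb without a peak, from chr5:35839011 to chr5:35868980, with the nearest summits 18016 bp upstream and 12107 bp downstream. Gaps of at least this length made up 6.28% of the gaps of chromosome 5 and 35.3% of its length.

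Inside IL7R the peaks formed a run over 5.17 kb. The first, chr5:35868981-35869124, lay 12107 bp after the start, with 16 reads, a fold of 3.22, a q value of 0.0048 and a width of 144 bp. The second, chr5:35873590-35873663, had 13 reads and a fold of 2.65 and was 74 bp wide. The last, chr5:35873931-35874152, began 267 bp after it and was the widest of the 46 peaks at 222 bp, with 15 reads and a fold of 3.03. Of the peaks of chromosome 5, 3.07% were at least this wide. Its q value of 0.0115 was just above 0.01.

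The highest peak of the 46 lay after IL7R and outside the gene. It was chr5:35908611-35908745, 51705 bp from the IL7R start and 29 kb beyond its end, with 19 reads, a fold of 3.78 and a q value of 0.000158. Of the peaks of chromosome 5, 2.72% were at least as high by fold. At 135 bp it was narrower than the median of 173 bp for peaks of 19 reads there. A stretch of 34.5 kb without a peak separated it from the peaks inside the gene. The lowest peak of the window by fold, chr5:35826758-35826901, had a fold of 2.63 from 14 reads. It and its neighbour chr5:35817549-35817712, with 15 reads, had a background of 4.7 reads, above the 4.29 reads of the other 6 peaks. Peaks above that shared background made up 3.1% of chromosome 5.

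Together, the windows held about as many peaks as the mean densities of their chromosomes give. At the mean densities of chromosomes 11, 10 and 5 there would have been 43.9 peaks, against 46 counted, a ratio of 1.05 (0.767 to 1.4, exact Poisson 95% interval). The RAG window had 99.8 peaks per Mb (53.1 to 171) against 124 on chromosome 11, a ratio of 0.806 (0.429 to 1.38). The DNTT window had 186 per Mb (121 to 275) against 117 on chromosome 10, a ratio of 1.59 (1.03 to 2.34). The IL7R window had 65.2 per Mb (28.1 to 128) against 98 on chromosome 5, a ratio of 0.665 (0.287 to 1.31). The intervals treat peaks as independent, and peaks stood in runs, so they are likely too narrow. The lower end of the interval of the DNTT ratio lay just above 1, and the intervals of the other windows included 1.

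Counts along a chromosome vary more than such intervals allow. Each chromosome was cut into tiles of the length of its window. On chromosome 11 the 1034 tiles had a median of 15 peaks, with 5% at or below 1.65 and 5% at or above 37, and 47.4% held at most the 13 peaks of the RAG window. On chromosome 10 the 1008 tiles had a median of 14, and 17.9% held at least the 25 peaks of the DNTT window. On chromosome 5 the 1472 tiles had a median of 10, and 40.8% held at most the 8 peaks of the IL7R window. All 3 windows thus lay within the middle 90% of tiles of their chromosomes.

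**Figure D2:**
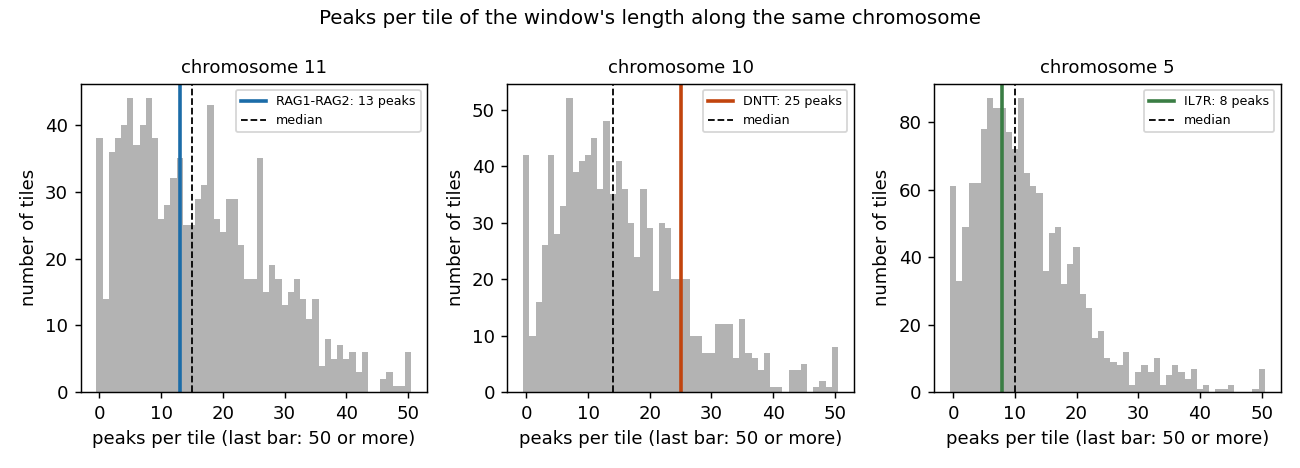
Number of peaks per tile (horizontal axis) against the number of tiles (vertical axis) on chromosomes 11, 10 and 5, with tiles as long as the RAG1-RAG2, DNTT and IL7R windows. Coloured lines mark the windows with 13, 25 and 8 peaks, and dashed lines the medians of 15, 14 and 10.

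Around RAG1 and RAG2 and around IL7R the wider surroundings were denser than the window. In the 500 kb before the RAG window there were 204 peaks per Mb and in the 500 kb after it 160, both above the 99.8 of the window. Around DNTT the values were 138 before and 200 after, with 186 inside. Around IL7R they were 98 before and 128 after, with 65.2 inside. The interval of the RAG window, 53.1 to 171 per Mb, includes the 160 but not the 204. That of the IL7R window, 28.1 to 128.4 per Mb, includes both the 98 and the 128. The nearest peaks outside the edges had 12 to 15 reads. The closest of them, chr10:98149258-98149380 with 15 reads, lay 959 bp beyond the DNTT window.

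The median heights of the windows were close to those of the chromosomes. The median pileup was 14 reads around RAG1 and RAG2, 14 around DNTT and 14.5 around IL7R, against 14 on each of the chromosomes. The highest pileup was 16, 17 and 19 reads in the same order, where chromosomes 11, 10 and 5 reached 297, 826 and 210. Around DNTT, 16% of peaks had 17 reads and 12% had 13 reads, against 5.04% and 27.8% on chromosome 10. These shares rest on 4 and 3 of the 25 peaks of the window. Pileups of 18, 19 and 20 or more reads were seen in 0 of the 25. On chromosome 10 they were seen in 2.49%, 1.25% and 2.33% of peaks. With peaks of q at most 0.01 alone, the density of the DNTT window was 2.58 times that of its chromosome. This ratio rests on 8 peaks and is given without an interval or a comparison with tiles. The lowest pileup of the list, 12 reads, was seen in 3 of the 46 peaks, against 9.52% of all peaks.

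**Figure D3:**
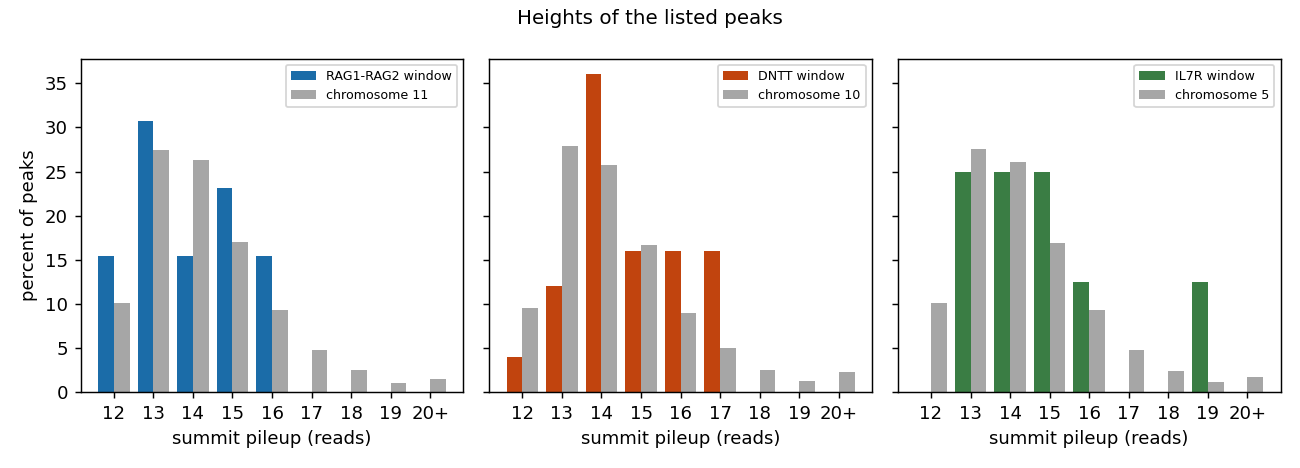
Percent of peaks (vertical axis) at each summit pileup in reads (horizontal axis) in the 3 windows (coloured) and on their chromosomes (grey). The window bars end at 16 reads around RAG1 and RAG2, 17 around DNTT and 19 around IL7R, and the medians of windows and chromosomes lie at 14 to 14.5 reads.

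Widths ranged from 51 to 222 bp over the 46 peaks, with a median of 100 bp against 99 bp in the whole list. The median was 91 bp around RAG1 and RAG2, 94 bp around DNTT and 139.5 bp around IL7R, against 98, 98 and 97 bp on their chromosomes. Width grows with pileup, so each peak was set beside the median of its chromosome at the same pileup. Wider than that were 6 of 13 peaks around RAG1 and RAG2, 8 of 25 around DNTT and 6 of 8 around IL7R, in all 20 of 46. By construction, at each pileup no more peaks of a chromosome lie above this median than at or below it. The counts per window are too small to show a difference in width. Peaks covered 1.02% of the RAG window, 2% of the DNTT window and 0.882% of the IL7R window, against 1.35%, 1.3% and 1.05% of the chromosomes.

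**Figure D4:**
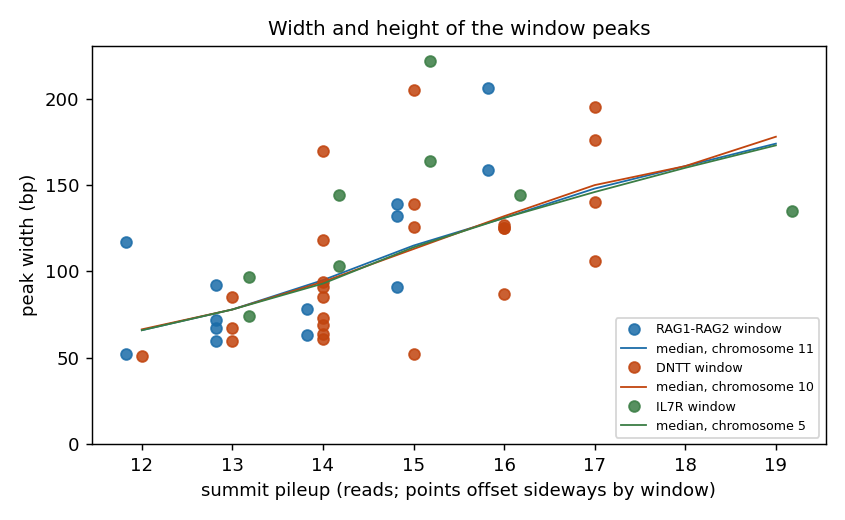
Width in bp (vertical axis) against summit pileup in reads (horizontal axis) for the 46 peaks, with lines for the median width at each pileup on chromosomes 11, 10 and 5. Points scatter on both sides of the lines, and 20 of 46 lie above them.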

How the data were processed

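The peak list of the pooled HA pulldown was used; the untagged pool had no list among the files used here. The submitters' processing notes name hg19, Bowtie2 (2.2.3) and, without settings, MACS2 (2.1.1.20160309). The deposited list gives each peak's start, end and summit. The fold column is the authors' linear ratio of summit to background. The deposited list also holds the −log10 of a p-value and of a q-value for each summit, and the highest q value was 0.0981. The deposited score column was not used.

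The pileup was recovered from deposited fold and p by solving fold = (pileup + 1)/(background + 1) with the Poisson upper tail. It came out whole within 0.05 reads for 99.9997% of peaks, and the step was tested on simulated data. The shared background was 4.29 reads, matched within 0.005. That the control of the peak caller was the untagged pool is not given in the sources used here.

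The 4 genes and all lists were chosen with earlier results of these data known. Gene ends are those of the spans, with strand from RefSeq (GRCh38.p14), in which all 4 symbols matched. Chromosome density is peaks over the span from first to last peak. Named peaks are, per window, the nearest to each gene start, the 3 highest and the lowest by fold, and those inside the span with q of at most 0.01, with ties. Others named, such as members of a run, the widest peaks and those with raised background, were chosen after their values were seen, as were the limits of 5 kb for runs and 10 kb for neighbours. No test was made, as there is 1 pooled library. Alternatives were flank lengths, q thresholds, overlap in place of summit, merged peaks and other references. Software was Python 3.11.15 with scipy 1.17.1, pandas 2.3.3 and numpy 2.4.6, and matplotlib 3.10.9 for figures.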

Additional observations from a re-analysis of the deposited data

How the results depend on the processing

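Of 54 alternatives, 42 left the value inside its interval and 12 moved it. Not all of the 42 were separate checks. At the shared background the pileup and the q value follow from the fold, so their medians largely repeat the median fold. Counting any overlap of 1 bp returned the main ratios of 0.806, 1.59 and 0.665 in the RAG, DNTT and IL7R windows. The tally of 42 therefore does not measure how stable the results are. The number of peaks per Mb relative to the chromosome kept its side of 1 in the RAG window in all 9 alternatives, from 0 with q of at most 0.001 (0 peaks left) to 0.901 with peaks within 1000 bp merged. Most alternatives reuse the same 13 peaks, and the interval of the main ratio, 0.429 to 1.38, includes 1. They therefore do not settle its side. The threshold of 0.001 was passed by 4.93% of the peaks of chromosome 11, so 0 of 13 says little. In the DNTT window the ratio of 1.59 was 0.995 in the gene alone. It was 2.58 with q of at most 0.01, where 8 peaks are left. The gene alone thus showed no excess over 1, but it holds 4 peaks, too few to show whether it differs from the window. With flanks of 25 kb the ratio was 1.31, and with flanks of 100 kb it was 1.93. The 50 kb flank after the gene held 280 peaks per Mb and the flank before it 140, against 117 on chromosome 10. The ratio was 0 with q of at most 0.001, where 0 peaks are left. That threshold was passed by 5.75% of the peaks of chromosome 10, so 25 peaks are too few to show whether an excess remains. In the IL7R window the ratio of 0.665 was 1.35 in the gene alone, 1.63 with q of at most 0.001, where 1 peak is left, and 1.01 with flanks of 100 kb. The median fold of DNTT peaks relative to the chromosome went from 1 to 0.972 with q of at most 0.01. The share of peaks at q of at most 0.01 became, by construction, 84.6%, 92% and 100% at 0.05 in the RAG, DNTT and IL7R windows, and 0% at 0.001 in the RAG and DNTT windows. No paired analysis was possible because each arm is 1 pooled library with no replicate numbers, and no replicate could be left out. With 8 to 25 peaks a window, small differences in density or height cannot be seen.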
